A study of Homo sapiens with 6 samples.

Results

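The AP-1 transcription factor genes FOS, FOSB, FOSL1, FOSL2, JUN, JUNB, JUND and ATF3 and the immediate early genes EGR1 and MYC were compared between a luminal and a luminobasal breast cancer line. The 10 genes were found by their names on the arrays, with all of their probes, and account for 10 of 25940 gene names and 14 of 34127 probes. Both lines were isolated from xenografts of T47Dco, a human luminal breast cancer cell line. pLUM cells are CLD3+CD49f-, express ER and PR but not CK5, came from a tumor grown under estradiol (E), and were given 1 nM E for 72 h. pLB cells are CLD3-CD49f+, lack ER and PR, express CK5, came from a tumor grown under E plus progesterone, and were measured under E withdrawal (EWD). Each line goes back to 1 tumor, and line, tumor and hormone cannot be told apart. RNA came from 3 FACS sorts of each line after staining for CK5; which CK5 fraction was hybridized is not given in the sources used here.

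AP-1 is a family of leucine zipper dimers. JUN proteins pair with each other or with FOS proteins, FOS proteins need a JUN partner, and the dimers bind short DNA sites in the promoters and enhancers of genes for growth, invasion and stress. Many AP-1 genes are immediate early genes, which are transcribed within minutes of a growth factor or stress signal without new protein synthesis, through serum response factor (SRF), its ELK partners and CREB downstream of MAP kinases. In breast cancer, FOSL1 and EGFR signaling are known features of ER- basal-like cells, and MYC is a known target of E in ER+ cells.

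Each array held 1 sample labeled with 1 dye. Signals are given as log2 relative to the 75th percentile of the array, so that 0 is the signal at that percentile, which was an intensity of 449 to 869, and 21280 to 22772 probes were well above background per array. On the markers of the lines, 7 of 7 basal genes were higher and 7 of 8 luminal genes lower in pLB. KRT8, a luminal keratin, had probes called in opposite directions, lower by 1.26 for the brightest probe and higher by 1.89 for another. The probe with the highest mean signal stood for its gene, which was called if it differed at least 2-fold with an adjusted p below 0.05 (limma). P-values measure only the spread between the 3 sorts of each line, and in bulk RNA fewer cells with a transcript cannot be told apart from less transcript per cell.

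The promoters of EGR1, FOSB, FOS and JUN are shown because FOSB and EGR1 had the largest differences of the 10 genes while FOS and JUN were not called. Each sequence is the 250 bases before the RefSeq start site in GRCh38.p14, read 5′ to 3′ on the strand of the gene. Capitals mark CArG boxes, the SRF site, in EGR1, the core of the cyclic AMP response element (TGACG) in FOSB, FOS and JUN, and in JUN also TGACATCA, the AP-1 variant through which JUN is known to act on its own gene.

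EGR1, chr5:138465229-138465478, plus strand: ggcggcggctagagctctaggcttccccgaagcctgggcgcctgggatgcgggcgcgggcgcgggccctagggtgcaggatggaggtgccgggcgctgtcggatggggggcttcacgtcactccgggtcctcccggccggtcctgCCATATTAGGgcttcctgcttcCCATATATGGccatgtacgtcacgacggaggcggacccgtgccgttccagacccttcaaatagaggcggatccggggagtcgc

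FOSB, chr19:45467746-45467995, plus strand: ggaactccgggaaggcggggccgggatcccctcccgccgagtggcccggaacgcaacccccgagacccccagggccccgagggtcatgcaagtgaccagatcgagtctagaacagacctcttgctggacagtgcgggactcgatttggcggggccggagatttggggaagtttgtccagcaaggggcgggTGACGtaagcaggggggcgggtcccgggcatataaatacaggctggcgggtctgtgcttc

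FOS, chr14:75278578-75278827, plus strand: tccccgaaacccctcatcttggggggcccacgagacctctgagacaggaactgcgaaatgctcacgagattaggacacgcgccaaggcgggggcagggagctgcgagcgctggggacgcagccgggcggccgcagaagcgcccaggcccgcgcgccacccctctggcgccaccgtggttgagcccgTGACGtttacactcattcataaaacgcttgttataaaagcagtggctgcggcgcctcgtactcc

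JUN, chr1:58784048-58784297, minus strand: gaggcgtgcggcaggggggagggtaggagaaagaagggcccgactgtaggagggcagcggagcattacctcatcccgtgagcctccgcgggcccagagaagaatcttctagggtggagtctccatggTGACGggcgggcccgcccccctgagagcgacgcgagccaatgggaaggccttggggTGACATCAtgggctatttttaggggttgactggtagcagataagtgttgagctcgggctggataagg

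Promoters were held for 8 of the 10 genes; those of FOSL1 and MYC were not analysed here. Motifs were counted on both strands of these windows and of 35116 RefSeq promoters. The CArG box occurred in 1.16% of all promoter windows and among the member windows in that of EGR1 alone, at 105 and 83 bases before the start. Sites beyond these 250 bases were not scanned, so a gene without a match here can hold one further upstream. TGACG occurred in 21.2% of all promoters and in those of FOS, FOSB, FOSL2, JUN, JUNB, JUND and EGR1. In FOS it lay 64 bases and in FOSB 60 bases before the start. TGACATCA occurred in 2.37% of all promoters, in JUN at 67 bases and in ATF3 at 123 bases. The full element TGACGTCA, which contains TGACG, occurred in 1.65% of promoters and only in JUND among the members. The AP-1 site TGACTCA, in 4.2% of promoters, and the EGR site GCGGGGGCG, in 4.72%, were in none of the member windows. These matches describe letters in a window and not occupied sites.

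All 10 genes had a probe that could be tested, and 13 of 14 probes passed the filter of 3 arrays well above background. FOSB, FOSL1, FOSL2, JUNB, ATF3, EGR1 and MYC were called higher in pLB, none was called lower, and FOS, JUN and JUND were not called. Of all 17668 genes tested, 22.7% were called higher and 23% lower in pLB, so that calls in either direction reached 45.8%. The median difference was 1.70 over the 10 genes and 0.04 over all genes. For 9 of the 10 genes the 3 pLB arrays did not overlap the 3 pLUM arrays, which was also true of 69.1% of all genes. In 8 of the 9 the pLB arrays were the higher ones, as in 35.7% of all genes. FOSB and EGR1 lay above the 95th percentile of all genes, a difference of 3.14, and FOSL1, FOSL2, JUNB, ATF3 and MYC between the 75th percentile, 0.92, and the 95th.

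**Figure D1:**
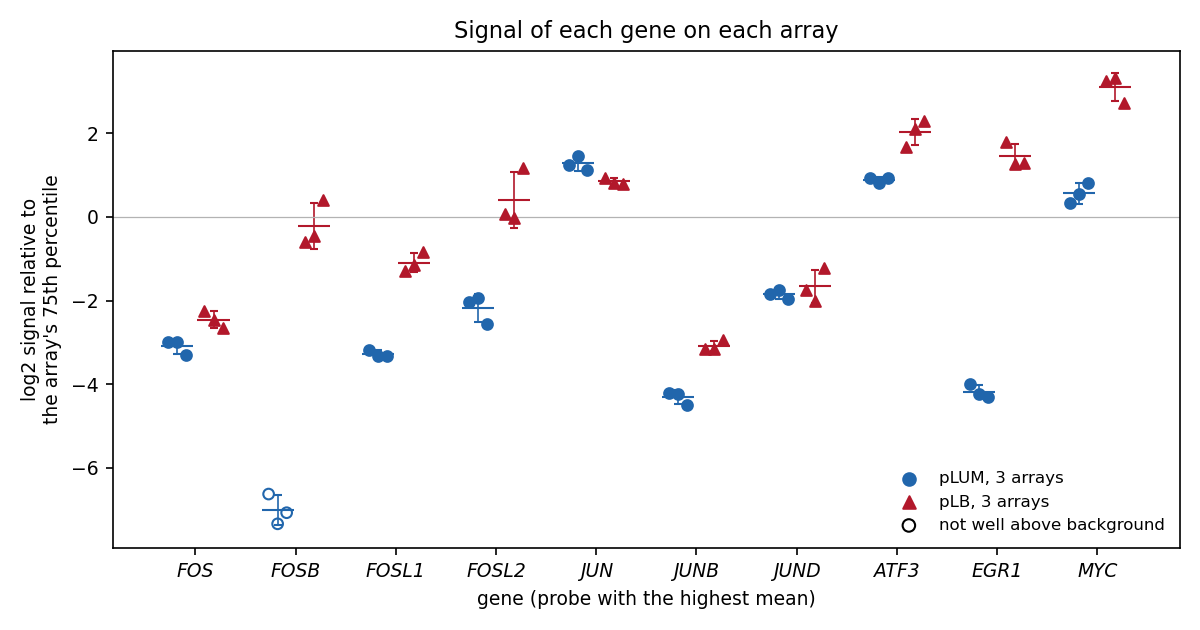
Log2 signal relative to the array's 75th percentile (vertical axis) for the brightest probe of each gene (horizontal axis) on the 3 pLUM arrays (circles) and the 3 pLB arrays (triangles); horizontal lines are means, error bars are SD, and open symbols are signals not well above background. FOSB and EGR1 show the widest gaps between the lines, the JUND arrays overlap, and JUN is the gene with lower signals in pLB.

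FOS is the founding member of the FOS family and the usual early partner of JUN. Its signal was -3.00, -2.99 and -3.30 in pLUM replicates 1, 2 and 3, and -2.25, -2.47 and -2.65 in pLB replicates 1, 2 and 3. All pLB arrays were above all pLUM arrays, but the difference of 0.64 (SE 0.18, 95% interval 0.21 to 1.08, adjusted p = 0.0178, limma) is 1.56-fold and was not called. Without the fold threshold FOS would join the 7 called genes, in a setting where 63.4% of all genes were called in either direction. Within slide 1, which held the 3 pLUM arrays and pLB replicate 1, it was 0.85. A value within slide 1 therefore rests on 1 pLB array, assumed to vary like the pLUM arrays, and the fit with slide as a block gives the same estimate because slide 2 held only pLB arrays. After normexp background correction, which adds an offset of 50 to each intensity, it was 0.09. FOS intensities were 57.4 to 70.6 in pLUM and 71.7 to 183 in pLB, of the size of that offset. The probe lies at chr14:75748214-75748273 (hg19, as are all probe positions) on the plus strand.

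FOSB is a FOS protein known for long-lived isoforms. Its probe (chr19:45978205-45978264) read -6.63, -7.34 and -7.07 in pLUM, where no array had it well above background, and -0.60, -0.45 and 0.41 in pLB, where it was well above background on all 3. The pLB mean was -0.22 ± 0.54 (SD, n = 3), and FOSB was at least 35.9-fold higher in pLB (adjusted p = 3.49e-06, limma). The bound sets the pLB mean against the lowest signal well above background on each pLUM array. The fitted difference, which rests on the dim pLUM signals, was 6.80 (SE 0.32), and within slide 1 it was 6.41. With normexp correction the fold was 5.53, still called. FOSB and EGR1 cannot be ranked, since the FOSB bound lies below the 49.5-fold difference of EGR1 and its fitted value above it. The promoter shown above holds TGACG, as do 21.2% of all promoters, at nearly the same distance as that of FOS. The part of this motif in the level of either gene was not tested.

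FOSL1, which encodes FRA-1 and is linked to invasion, had signals of -3.18, -3.32 and -3.32 in pLUM and -1.29, -1.16 and -0.85 in pLB. The pLUM arrays lay close together and below every pLB array. FOSL1 was 4.51-fold higher in pLB (log2 2.17, SE 0.18, adjusted p = 4.33e-05, limma). Within slide 1 the difference was 1.99, and with normexp correction 1.17, still called. The probe is at chr11:65660098-65660157 on the minus strand.

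FOSL2, which encodes FRA-2, read -2.04, -1.93 and -2.56 in pLUM and 0.07, -0.03 and 1.17 in pLB (chr2:28637175-28637234). pLB replicate 3 was above the other two pLB arrays by more than 1, and FOSL2 had the largest SD of the 10 genes in pLB, 0.67. The lines still did not overlap, and FOSL2 was 5.99-fold higher in pLB (log2 2.58, SE 0.35, adjusted p = 0.000548, limma). Without single arrays the difference ranged from 2.20 to 2.80, and within slide 1 it was 2.25.

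JUN is the main DNA-binding partner of FOS proteins. Its probe, at chr1:59246511-59246570 on the minus strand, read 1.24, 1.46 and 1.13 in pLUM and 0.94, 0.82 and 0.79 in pLB. Each pLB array was below each pLUM array. The difference of -0.43 (SE 0.17, 95% interval -0.82 to -0.04, adjusted p = 0.0548, limma) did not pass the test. It was -0.34 within slide 1 and -0.18 when arrays were scaled on spike-in controls. JUN was called under none of the 20 alternative settings. In some of them, such as quantile normalization (adjusted p = 0.0361, limma), it passed the adjusted p but stayed under 2-fold.

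JUNB, which binds DNA with FOS proteins and often restrains JUN, had signals of -4.20, -4.23 and -4.50 in pLUM and -3.16, -3.16 and -2.95 in pLB (chr19:12902998-12903057). The arrays of each line were close together and the lines did not overlap. JUNB was 2.33-fold higher in pLB (log2 1.22, SE 0.17, adjusted p = 0.00057, limma), and 1.15 within slide 1. The call did not hold with normexp correction, where the difference was 0.12 (adjusted p = 0.78, limma). Its intensities reached at most 29.9 in pLUM and were 58.0 to 97.3 in pLB, in the range of the offset that this correction adds.

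JUND, the JUN gene that is known to be expressed steadily in resting cells, read -1.84, -1.74 and -1.97 in pLUM and -1.76, -2.01 and -1.23 in pLB (chr19:18391371-18391430, minus strand). The lines overlapped, with pLB replicate 2 the lowest and pLB replicate 3 the highest of all 6 arrays. The difference was 0.19 (SE 0.23, 95% interval -0.35 to 0.73, adjusted p = 0.504, limma), so that a change of more than 0.73 in either direction lies outside the interval. Its sign turned to -0.03 without pLB replicate 3 and to -0.03 with normexp correction, and it was 0.10 within slide 1.

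ATF3, a stress-induced leucine zipper protein that dimerizes with JUN, was measured by 4 probes. The brightest (chr1:212793856-212793915) read 0.94, 0.80 and 0.93 in pLUM and 1.68, 2.11 and 2.29 in pLB. All pLB arrays were above all pLUM arrays, and ATF3 was 2.20-fold higher in pLB (log2 1.13, SE 0.20, adjusted p = 0.002, limma). The difference was 0.79 within slide 1 and with slide as a block, and 0.89 for the mean of the 4 probes, each below 2-fold and therefore not called. Of the other 3 probes, those at chr1:212788502-212788561 and chr1:212792837-212792896 were called higher by 1.11 (SE 0.40) and 1.09 (SE 0.29), as were 21.9% of all probes tested. The probe at chr1:212792519-212792578 differed by 0.24 (SE 0.28, adjusted p = 0.489, limma) and was not called. The array lists it under the same transcript, NM_001040619, as the brightest probe and the probe at chr1:212792837-212792896, so that probes of 1 listed transcript differed in their call. The 60-base sequences of the called probes that the array lists under variants 1 and 4 are printed as examples of separate parts of the gene. They were chosen after their values were seen. The variant numbers are those of the array's description, and whether a probe is specific to its variant was not tested.

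ATF3 variant 1 probe: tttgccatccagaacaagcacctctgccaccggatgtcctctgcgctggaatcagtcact

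ATF3 variant 4 probe: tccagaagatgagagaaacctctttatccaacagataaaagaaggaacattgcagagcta

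EGR1 encodes a zinc finger factor and is a classic SRF target, with the pair of CArG boxes printed above. Its signal was -4.01, -4.23 and -4.31 in pLUM and 1.79, 1.27 and 1.28 in pLB. The probe (chr5:137804891-137804950) was well above background on all 6 arrays, and the lowest pLB array was more than 5 above the highest pLUM array. EGR1 was 49.5-fold higher in pLB (log2 5.63, SE 0.20, 95% interval 5.15 to 6.11, adjusted p = 1.26e-06, limma). It was 5.97 within slide 1, 5.46 to 5.72 without single arrays, and 14.7-fold with normexp correction, and was called in each of these fits. Unlike FOSB, EGR1 was above background in pLUM. Its intensities there were still low, 28.5 to 30.0, below the normexp offset of 50, so the size of the fold depends on the background correction.

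MYC encodes a leucine zipper factor of another kind, which binds DNA with MAX. Its probe was spotted 10 times per array, at chr8:128753268-128753327, and the mean of the spots was 0.33, 0.54 and 0.82 in pLUM and 3.25, 3.33 and 2.71 in pLB. The lines did not overlap, and MYC was 5.79-fold higher in pLB (log2 2.53, SE 0.23, adjusted p = 7.39e-05, limma). MYC was thus higher in the line without E. The difference was 2.69 within slide 1, 2.42 to 2.73 without single arrays and 2.47 with normexp correction. Another MYC probe, at chr8:128748076-128748135, was well above background on no array and was not tested.

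**Figure D2:**
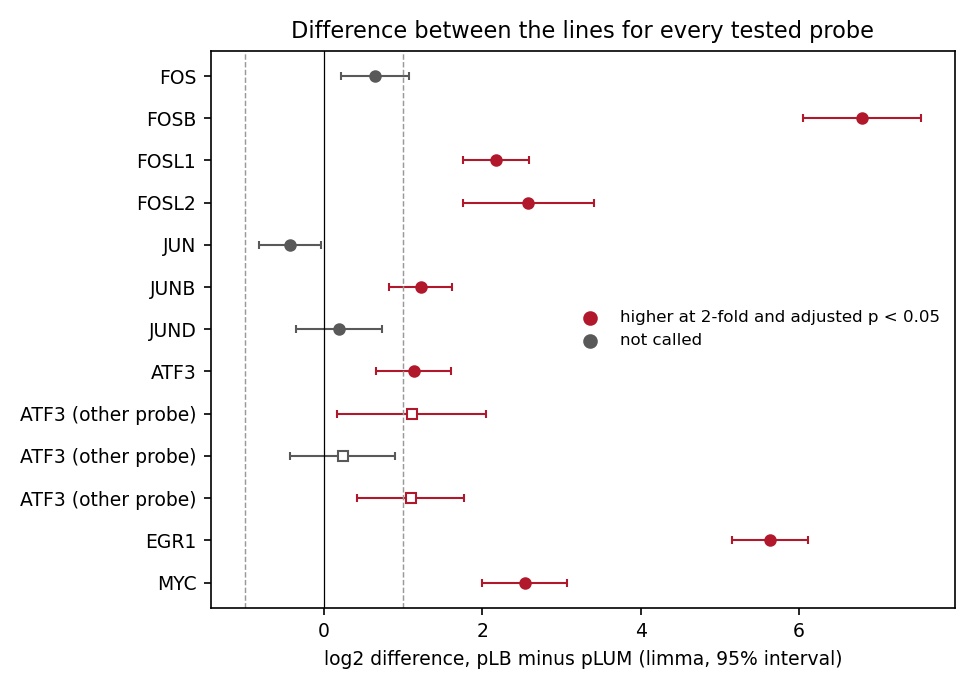
Log2 difference, pLB minus pLUM, with its 95% interval (horizontal axis, limma) for each of the 13 tested probes; filled circles are the brightest probe of a gene, open squares other probes, red marks called probes, and dashed lines mark 2-fold. The intervals, which are not adjusted for the number of probes, exclude 0 for FOS and JUN. Both differences are under 2-fold, and the adjusted p of JUN, 0.0548 (limma), is also above 0.05. Of the 4 ATF3 probes, 1 stands apart at 0.24.

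Members of a family were set against each other by the difference of their changes, in 5 comparisons. Each set a gene called higher against a gene of its family that was not called, so a positive difference followed from the choice of pairs. On the log2 scale FOSL2 rose by 1.94 more than FOS changed and FOSL1 by 1.53 more. For FOSB the fitted signals gave 6.15 more than FOS, which rests on pLUM signals at background, and its lower bound gave at least 4.52 more. JUNB rose by 1.65 more than JUN and by 1.04 more than JUND. In each comparison the 3 pLB arrays were above the 3 pLUM arrays. The exact two-sided permutation p was 0.1 for each, the smallest that 3 arrays against 3 allow, and 0.1 after adjustment, so none could reach 0.05. The comparisons were not repeated with normexp correction. There JUNB changed by only 0.12, against -0.35 for JUN and -0.03 for JUND, and FOSL1 by 1.17 against 0.09 for FOS.

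The 10 genes varied more among the pLB arrays, with a median SD of 0.31 (0.08 to 0.67), than among the pLUM arrays, with a median SD of 0.17 (0.08 to 0.36). Over all genes the median SD was 0.27 in pLB and 0.20 in pLUM. pLB replicate 3 was the highest pLB array for FOSB, FOSL1, FOSL2, JUNB, JUND and ATF3, and the lowest for FOS, JUN and MYC. It also had the lowest 75th percentile of intensity, 449. With any single array left out, 7 of the 10 genes were called higher.

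AP-1 dimers also draw on leucine zipper partners outside the FOS and JUN families. Of 17 such genes 15 were tested, with 6 called higher and 2 lower in pLB, or 53.3% against 45.8% of all genes. Their median difference was 0.79. CREB5, a CREB-family factor, read -4.84, -4.70 and -4.72 in pLUM and 0.47, 0.58 and 0.38 in pLB, and was 37.5-fold higher (adjusted p = 5.83e-07, limma). Its pLUM signals were not far above the lowest signals well above background on those arrays, -5.44 to -5.26. The MAF gene was higher by 4.53, MAFF by 4.27 and BATF3 by 4.12, but their probes were well above background on only 1, 2 and 1 of the 3 pLUM arrays. BATF, which dimerizes with JUN proteins and is best known in lymphocytes, went the other way. It read -0.69, -0.65 and -0.62 in pLUM and was well above background on no pLB array, at least 24.9-fold lower there. MAFK, a small MAF protein, fell by 1.12. ATF7 and NFE2L2 were not well above background on any array.

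Of 29 other immediate early genes 28 were tested, with 14 called higher and 1 lower, or 53.6% against 45.8% of all genes. Their median difference was 1.00. EGR4, a zinc finger relative of EGR1, was well above background on no pLUM array and read 0.63, 0.47 and 0.86 in pLB, at least 65.6-fold higher. EGR2 was at least 12.1-fold higher in the same way. EGR3, the remaining relative, read -5.15, -5.89 and -5.42 in pLUM and -5.34, -6.07 and -4.05 in pLB. Its difference of 0.33 (SE 0.49) was not called. The lowest signal well above background was -5.70 to -4.75 across the arrays. EGR3 lay close to it, and below it in replicate 2 of each line. PTGS2, which encodes the inducible cyclooxygenase COX-2, was at least 20.9-fold higher, and CTGF, a secreted matrix-associated protein, at least 4.91-fold higher. RHOB, a small GTPase, was the gene called lower, by 2.03, and its other probe fell by 2.38. NR4A1, a nuclear receptor induced by many signals, was well above background on no array.

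**Figure D3:**
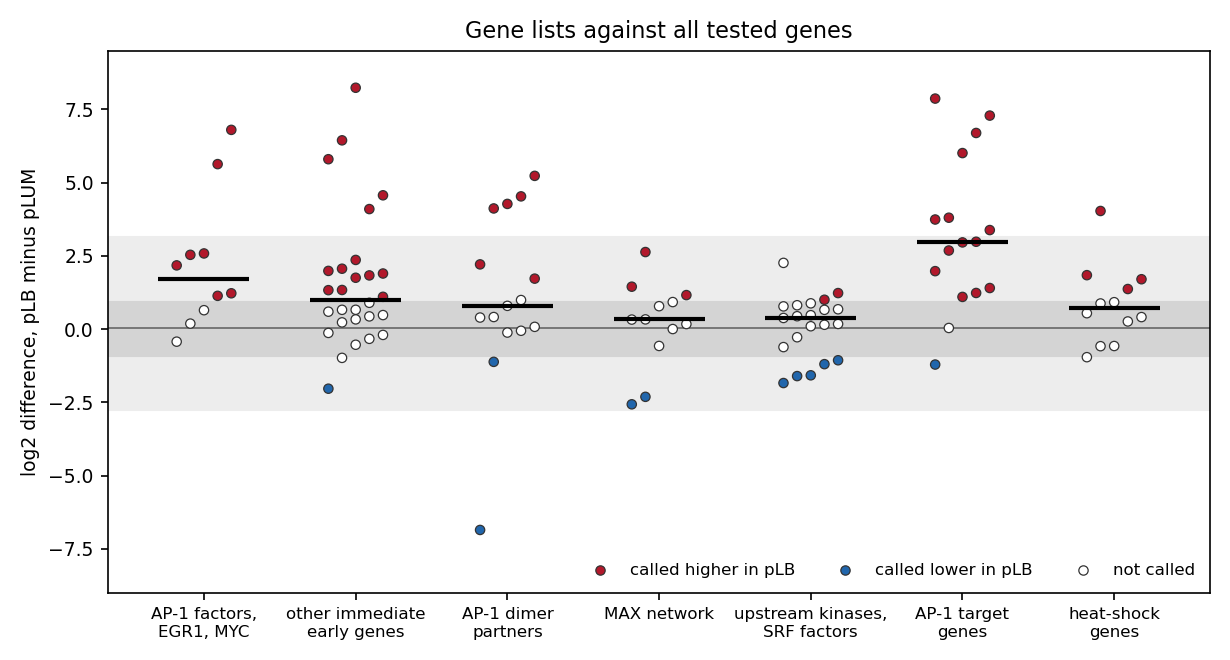
Log2 difference, pLB minus pLUM (vertical axis), of the brightest probe of each tested gene in 7 gene lists (horizontal axis); filled points are called higher (red) or lower (blue), open points are not called, and short black lines are list medians. Genes at background in a line are drawn at their fitted difference. The dark and pale grey bands span the 25th to 75th and the 5th to 95th percentiles of all 17668 tested genes and the thin line is their median; AP-1 target genes have the highest list median, 2.97, and the upstream kinases and the MAX network lie near the center.

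Of 23 kinases and transcription factors upstream of immediate early genes 21 were tested. In pLB 2 were called higher and 5 lower, or 33.3% against 45.8% of all genes, with a median of 0.38. MKL1, an SRF coactivator, rose by 1.23, whereas MKL2, its paralog, was 2.29-fold lower. MAP2K2, which encodes the ERK kinase MEK2, was higher by 1.00, at the 2-fold threshold. The JNK genes MAPK10 and MAPK8 were 3.58-fold and 3.04-fold lower, MAP3K1, a kinase upstream of JNK, fell by 1.58, and the p38 gene MAPK14 fell by 1.06. MAPK9, the remaining JNK gene, differed by -0.28 and was not called. These counts depended on the processing, with 0 genes higher under normexp correction, 6 higher and 3 lower under spike-in scaling, 8 higher without the fold threshold, and 1 higher without pLUM replicate 2. SRF itself was well above background on no array.

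MYC acts in a network of factors that share the partner MAX. Of 13 network genes 12 were tested, with 3 called higher and 2 lower, or 41.7% against 45.8% of all genes. Their median was 0.33. MAX differed by 0.32 (SE 0.18, adjusted p = 0.162, limma) and was not called. MYCL1, a MYC paralog, was higher by 2.63, MXI1, a MYC antagonist, by 1.45, and MLXIP, a glucose-responsive factor, by 1.16. MXD3 and MXD4, which compete with MYC for MAX, fell by 2.57 and 2.31. MXD3 read 4.73, 4.54 and 4.31 in pLUM and 1.75, 1.95 and 2.18 in pLB. MYCN was well above background on no array.

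Genes with well-known AP-1 sites were mostly higher in pLB. Of 19 such targets 16 were tested, with 14 called higher and 1 lower, or 93.8% against 45.8% of all genes. The median difference was 2.97, or 2.33 with the 4 genes at background in pLUM set to their lower bounds. The bounds left the medians of the other lists of factors and early genes as given. PLAU, which encodes urokinase, read -3.06, -3.15 and -2.91 in pLUM and 4.94, 5.03 and 4.50 in pLB, 234-fold higher (adjusted p = 3.85e-07, limma). SPRR1B, a cornified envelope protein of squamous cells, was higher by 7.29 and was well above background on all 6 arrays. Its pLUM signals of -4.81, -5.23 and -4.95 were close to the lowest signals well above background on those arrays, -5.44 to -5.26. The collagenase MMP1 was at least 34.6-fold and the stromelysin MMP10 at least 22.8-fold higher. CLU, which encodes clusterin, fell by 1.21, a call that was lost when pLUM replicate 2, pLUM replicate 3 or pLB replicate 3 was left out and with slide as a block. HMOX1, heme oxygenase, differed by 0.04. IL6, MMP3 and MMP13 were not tested. With normexp correction 6 targets were called higher, and 8 rather than 14 of the other immediate early genes.

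Another scaling moved all genes together. When the arrays were scaled on spike-in controls, the median over all genes was 0.29 instead of 0.04, and 60.1% rather than 49.7% of called genes were higher in pLB. Under that scaling all 10 members kept their direction and 7 were called higher. Over 20 settings, or 19 for FOSB, the called values ranged from 2.47 to 7.05 for FOSB and 3.88 to 5.97 for EGR1. They ranged from 2.42 to 2.79 for MYC, 1.96 to 2.84 for FOSL2 and 1.17 to 2.43 for FOSL1.

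**Figure D4:**
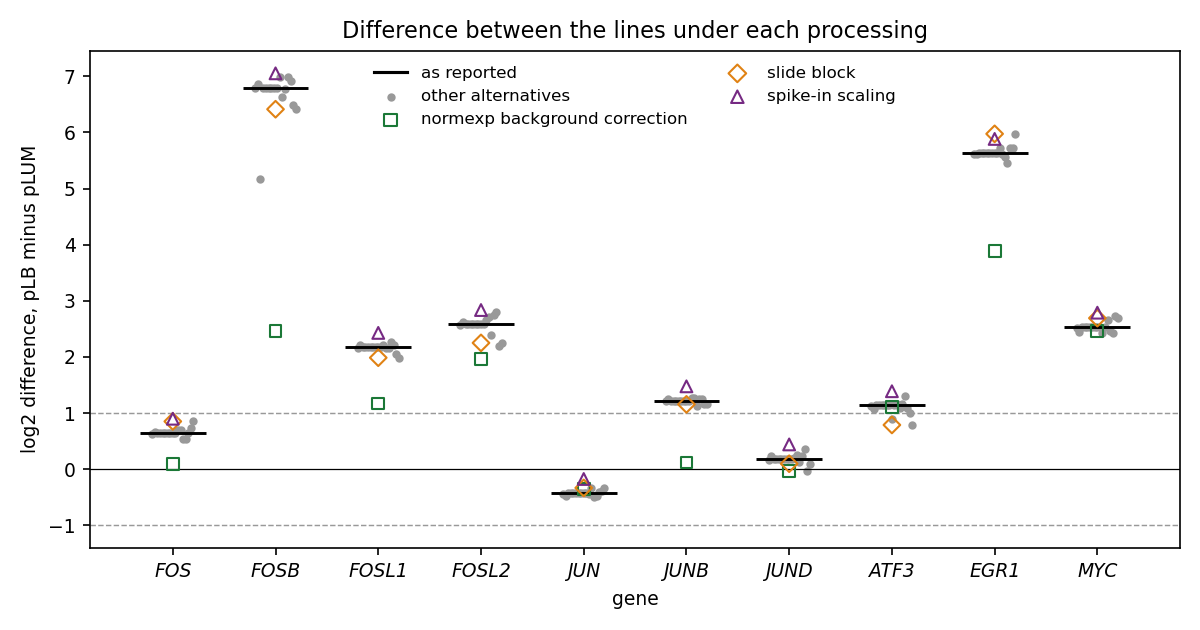
Log2 difference, pLB minus pLUM (vertical axis), of each gene (horizontal axis) as reported (black line) and under each alternative (symbols), with dashed lines at 2-fold. FOSB and EGR1 lie lower with normexp correction, at 2.47 and 3.88, JUNB falls to 0.12, and ATF3 falls below 2-fold with slide as a block.

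Stress genes and markers of other cell types were read alongside. Of 12 heat-shock genes 4 were called higher and none lower, or 33.3% against 45.8% of all genes, with a median of 0.71. Their summed signal, in units of the array's 75th percentile, was 212 to 242 in pLUM and 344 to 460 in pLB. The co-chaperone BAG3 was at least 12.3-fold higher, and HSPE1 and HSPD1, a mitochondrial chaperonin pair, were higher by 1.70 and 1.37. HSPA1A and HSPA1B, the inducible HSP70 genes, differed by -0.96 and -0.58 and were not called. HSPA8 had probes called in opposite directions, higher by 1.84 for the brightest and lower by 1.69 and 1.46 for the others. Of 6 fibroblast markers COL3A1, DCN, LUM and PDGFRB were well above background on no array, COL1A2 was called higher, and the summed signal was 0.767 to 0.966 in pLUM and 0.786 to 1.14 in pLB. Of 4 leukocyte markers CD68 was called higher, with sums of 0.196 to 0.321 and 0.257 to 0.384. Of 3 endothelial markers VWF was called higher, with sums of 0.0659 to 0.101 and 0.0872 to 0.196. The part of heat-shock genes or other cells in the differences of the AP-1 and immediate early genes was not tested.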

How the data were processed

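Cells of each line were sorted, and their RNA was hybridized to Agilent 4x44K arrays. The authors deposited Feature Extraction 10.10.1.1 output, a linear intensity per spot corrected for background and not normalized between arrays, with hg19 positions. Intensities were scaled to the 75th percentile of their own array and put on the log2 scale, without control or outlier spots, and repeated spots were averaged. The lines were compared for probes that 3 or more of the 6 arrays had well above background (lmFit and eBayes of limma 3.58.1, R 4.3.3), with p-values adjusted by Benjamini-Hochberg over all 23103 probes, of which 17668 stood for a gene. On simulated data with 23097 probes, the fit recovered 140 of 200 changed probes, or 70%, and made 9 false calls. Only those 200 probes were changed, whereas 45.8% of all genes were called here, and each planted change was larger than the differences of FOS, JUN and JUND. The 70% therefore does not describe the power of this comparison. With 3 arrays per line, a gene that was not called can still differ.

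The members and lists were chosen with earlier results of these data known. All 10 members are named with every probe, and from each list up to 4 called genes with the largest change in each direction, and genes with probes called in opposite directions. EGR3, NR4A1, MAPK9, MAPK14, MAX, SRF, MYCN, HMOX1, HSPA1A and HSPA1B, other genes named as not called or not tested, and those in the closing observations were chosen after their values were seen. Alternatives covered background correction, scaling, filter, threshold, test, probe rule, slide, replicate number and single arrays. Precision is limited by the 3 arrays per line.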

Additional observations from a re-analysis of the deposited data

How the results depend on the processing

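The 7 members called higher kept their direction under all 20 alternatives, and their calls under all but normexp correction for JUNB and slide or the mean of probes for ATF3. FOSB had no value under the filter that asks all 6 arrays to exceed background. FOS passed only without the fold threshold, and JUND turned to -0.027 with normexp correction and to -0.032 without pLB replicate 3 (-0.032 to 0.36 without single arrays). With normexp correction, 2563 instead of 4016 of all genes were higher, 8 instead of 14 other immediate early genes, 0 instead of 2 upstream genes and 6 instead of 14 targets. Spike-in scaling gave 5 instead of 3 MAX network and 6 upstream genes higher, and 1 instead of 2 partners, 3 instead of 5 upstream genes and 0 instead of 1 target lower. Median scaling gave 1 upstream gene higher. With all 6 arrays well above background, 3 instead of 6 partners and 7 targets were higher and 1 partner lower. Without the fold threshold, 5 MAX network and 8 upstream genes were higher and 3 instead of 1 other immediate early genes lower. Quantile normalization gave 2 of the latter lower. With slide as a block, or within slide 1 (chosen after seeing the data), which give the same estimates from 1 pLB array, 3 were lower and 0 targets. The methods' t-test, with or without Benjamini-Hochberg adjustment, gave 0 targets lower. Other causes were not tested.

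Without single arrays, members higher ranged from 7 to 7 and lower from 0 to 0, partners higher 6 to 7 and lower 1 to 2 (1 without pLB replicate 1), targets higher 13 to 14 and lower 0 to 1, MAX network genes higher 3 to 4 and lower 2 to 2, other immediate early genes higher 14 to 15 and lower 1 to 2 (2 without pLUM replicate 1, pLUM replicate 3 or pLB replicate 3), and upstream genes higher 1 to 3 and lower 4 to 6.

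After the mean of its line was subtracted from each array, same-numbered arrays correlated across probes at -0.27, -0.10 and -0.22. Arrays with different numbers correlated at -0.03 to 0.25. The subtraction ties these values to each other, so they cannot settle whether the replicate numbers pair the arrays. With the replicate numbers as a block, 7 members were called higher, 3970 of all genes higher and 4008 lower, and 0 targets lower.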

Other observations

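ELK3, an SRF partner of the ELK family, was uneven within pLUM. It read -1.59 in pLUM replicate 1 and -6.26 and -6.12 in replicates 2 and 3, where it was not well above background, against -2.47, -2.42 and -2.30 in pLB. Its fitted difference of 2.26 (SE 1.15, adjusted p = 0.126, limma) was not called. ATF2, which pairs with JUN, was higher by 0.99 (SE 0.17), and GADD45B, a stress-response gene, lower at -0.98 (SE 0.22), both just short of 2-fold. The bright PLAU probe had a companion that was well above background on no pLUM array and at least 83.5-fold higher in pLB.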
